A study of Mus musculus with 6 samples.

Results

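The platelet-derived growth factor (PDGF) genes of native cardiac fibroblasts (CFs) were examined, namely the 4 ligand genes *Pdgfa*, *Pdgfb*, *Pdgfc* and *Pdgfd* and the 2 receptor genes *Pdgfra* and *Pdgfrb*. These 6 genes were found by their symbols among the 49548 genes of the count table, and all 6 had enough reads to be tested. mRNA was sequenced from native CFs of 3 WT and 3 CharmeKO samples, isolated from hearts of C57BL/6 J mice at 5 weeks of age. CharmeKO mice carry a polyadenylation signal inserted in the locus of *Charme*, a long non-coding RNA of heart and skeletal muscle, in every cell and not in fibroblasts alone. The cells were obtained by enzymatic dissociation and depletion of hematopoietic lineages, with no sort against endothelial or mural cells among the described steps. According to the study, the cells were also checked for absence of the vascular marker CD309, the protein of *Kdr*. The labels also list a culture medium for these samples. The methods describe hearts from several mice per genotype, but neither they nor the labels tie each library to its own animal, so the p-values measure the spread between these libraries.

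PDGF ligands are secreted as dimers and signal through receptor tyrosine kinases on neighbouring cells. The alpha receptor binds the A, B and C chains, while the beta receptor binds mainly the B and D chains. In the heart, *Pdgfra* is used as a marker of resident fibroblasts and *Pdgfrb* is high in pericytes and smooth muscle cells but also present in fibroblasts. Endothelial cells secrete PDGF-B, which attracts pericytes to the vessel wall.

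Between 9595701 and 42101393 reads were counted on genes per library, with the fewest in WT replicate 3. *Charme* itself had 26, 15 and 4 counts in WT and 7, 0 and 0 counts in CharmeKO replicates 1, 2 and 3. The fibroblast label was checked with 10 marker genes other than the PDGF receptors. All 10 were expressed, and their summed level was between 41519 and 44473 CPM (read counts scaled to a common library size by the TMM method) in WT and between 33818 and 42604 CPM in CharmeKO. *Gsn* alone made up 52.4% of this sum. Genes of endothelial cells were also abundant, with a sum of 10 markers between 8959 and 10725 CPM in WT and between 9329 and 11661 CPM in CharmeKO. Among them, *Kdr* mRNA averaged 854 ± 98.7 CPM for WT against 1110 ± 125 CPM for CharmeKO (SD, n = 3 each). The sum of 10 pericyte markers was between 1956 and 2383 CPM in WT and between 1930 and 2138 CPM in CharmeKO. That of 6 erythroid genes was high, between 26778 and 39216 CPM in WT and between 24417 and 31749 CPM in CharmeKO. Other lists differed between the groups without overlap. The sum of 9 cardiomyocyte markers was between 261 and 336 CPM in WT and between 383 and 588 CPM in CharmeKO, and that of 6 epicardial markers was between 57.8 and 75.0 CPM in WT and between 34.0 and 41.4 CPM in CharmeKO. *Wt1* alone made up 82.3% of the epicardial sum, and the other genes of that list averaged between 0.57 and 3.46 CPM. The part of these other cells in the values of the PDGF genes was not tested.

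To determine whether the expression of the PDGF system differed between CharmeKO and WT native CFs, each gene was compared by the quasi-likelihood test of edgeR, its p-values adjusted by the Benjamini-Hochberg method over 15789 tested genes. None of the 6 genes passed the adjusted threshold of 0.05, which 0.830% of all tested genes did, 0.418% as higher and 0.412% as lower in CharmeKO. *Pdgfb* and *Pdgfrb* were at lower values in every CharmeKO library than in every WT library, by 0.35 and 0.26 on the log2 scale. *Pdgfd* had the only positive difference, 0.44 on the log2 scale, and *Pdgfra* was nearly at the same mean level in both groups. At an unadjusted p under 0.05, there were 2 of the 6 genes, *Pdgfb* and *Pdgfd*, against 12.8% of all tested genes (5.90% higher and 6.87% lower), and DESeq2 called 0 of the 6, against 2.55% of the genes for which it gave an adjusted p. The median log2 fold change of the 6 genes was −0.19 and that of all tested genes 0.0097. In RNA of a mixed preparation, fewer cells of a type and less RNA per cell cannot be told apart.

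**Figure D1:**
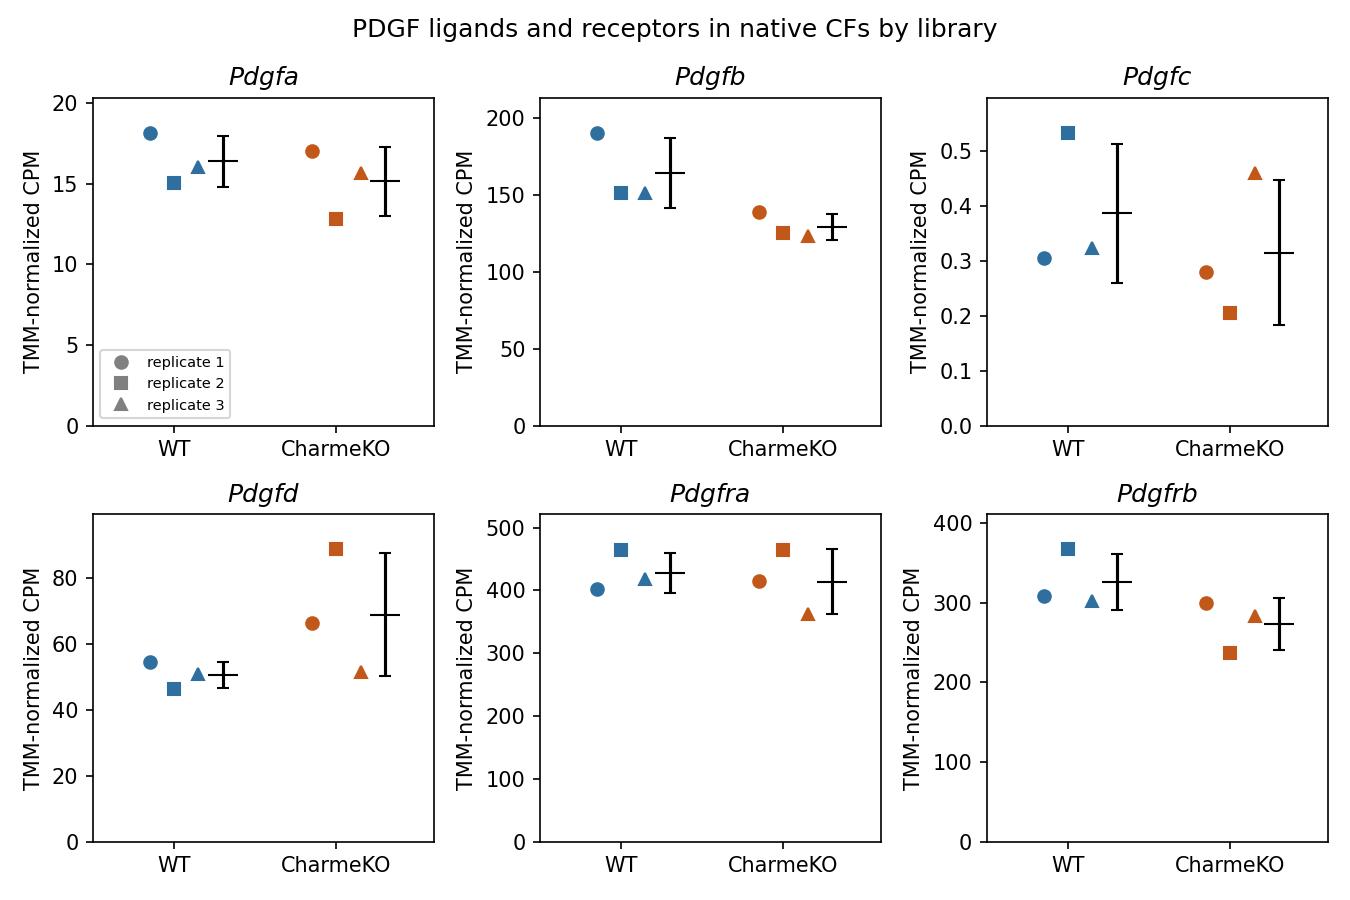
TMM-normalized CPM (vertical axes, from 0) of the 6 PDGF genes in the 3 WT and 3 CharmeKO libraries, with symbols for the replicate numbers and the mean ± SD of each group beside the points. The groups do not overlap for *Pdgfb* (WT from 151 CPM, CharmeKO up to 139 CPM) and for *Pdgfrb* (WT from 302 CPM, CharmeKO up to 299.6 CPM), and they overlap for the other 4 genes.

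Promoter sequences are shown for *Pdgfra*, the member with the most reads and a mean near to that of WT, and for *Pdgfd*, the only member with a positive difference. Each is given as the 250 bases before the RefSeq start on GRCm38.p6, at chr5:75152001-75152250 (plus strand) for *Pdgfra* and at chr9:6168236-6168485 (plus strand) for *Pdgfd*, with matches to the searched motifs in capitals.
Pdgfra: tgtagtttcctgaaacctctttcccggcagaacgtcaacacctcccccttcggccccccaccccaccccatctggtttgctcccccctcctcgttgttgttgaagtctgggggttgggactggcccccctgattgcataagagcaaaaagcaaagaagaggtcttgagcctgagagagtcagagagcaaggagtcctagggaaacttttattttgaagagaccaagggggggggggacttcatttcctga
Pdgfd: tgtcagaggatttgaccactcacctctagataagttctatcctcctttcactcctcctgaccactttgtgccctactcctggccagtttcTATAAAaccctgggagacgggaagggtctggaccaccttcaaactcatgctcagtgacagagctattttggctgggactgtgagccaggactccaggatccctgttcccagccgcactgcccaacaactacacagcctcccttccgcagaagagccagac
The motifs, searched on both strands, were 4 that do not overlap each other. The GC box GGGCGG is held by 33.0% of 32544 promoters of this length. The CCAAT box is held by 33.8% of them, the TATA box, spelled TATAAA, by 12.3% and the AP-1 motif, spelled TGANTCA, by 6.73%. The window of *Pdgfd* held 1 match, TATAAA, whose first base lies 160 bases before the start, and that of *Pdgfra* held none of the 4. A match of these letters is a description of the sequence and not a measured binding site, and the lack of one says only that the letters are not in this window.

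*Pdgfra* (ENSMUSG00000029231), which encodes the alpha receptor, had the highest read counts of the family, between 3892 and 17078 per library, and its mean CPM was at rank 323 among the tested genes. It was at 402, 464 and 419 CPM for WT replicates 1, 2 and 3, against 415, 464.5 and 362 CPM for CharmeKO replicates 1, 2 and 3. The groups overlapped, with the highest values in replicate 2 of both groups and the lowest in CharmeKO replicate 3. WT libraries averaged 428 ± 32.1 CPM and CharmeKO libraries 414 ± 51.4 CPM (SD, n = 3 each), a log2 fold change of −0.049 ± 0.13 (SE, adjusted p = 0.914 by edgeR). The 95% interval of this difference ran from −0.34 to 0.24, and its sign turned without WT replicate 2 or CharmeKO replicate 3.

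*Pdgfrb* (ENSMUSG00000024620), which encodes the beta receptor, was at 309, 367 and 302 CPM for WT replicates 1, 2 and 3, against 299.6, 236 and 284 CPM for CharmeKO replicates 1, 2 and 3. All CharmeKO values were below all WT values, but the gap between CharmeKO replicate 1 and WT replicate 3 was small against the spread within each group. WT libraries averaged 326 ± 35.6 CPM and CharmeKO libraries 273 ± 32.8 CPM (SD, n = 3 each), a log2 fold change of −0.26 ± 0.14 (SE, 95% interval −0.56 to 0.044, adjusted p = 0.467 by edgeR). *Pdgfb* and *Pdgfrb* were thus 2 of 6 genes without overlap between the groups, a pattern that 18.2% of all tested genes showed, 9.57% of the tested genes with CharmeKO as the higher group and 8.59% with it as the lower group. Without CharmeKO replicate 2 the log2 fold change of *Pdgfrb* was −0.16, and without WT replicate 2 it was also −0.16.

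*Pdgfb* (ENSMUSG00000000489), the B chain, is the ligand of both receptors. It was at 189.9, 151.1 and 150.7 CPM for WT replicates 1, 2 and 3, against 139, 125 and 123 CPM for CharmeKO replicates 1, 2 and 3. The CharmeKO values lay close together below the WT values, and WT replicate 1 stood above the other two WT libraries. WT libraries averaged 164 ± 22.5 CPM and CharmeKO libraries 129 ± 8.27 CPM (SD, n = 3 each), a log2 fold change of −0.35 ± 0.13 (SE, 95% interval −0.63 to −0.066, unadjusted p = 0.0200 and adjusted p = 0.292 by edgeR). Its log2 fold change was −0.22 without WT replicate 1 (adjusted p = 0.524 in edgeR) and reached −0.40 when another library was omitted.

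*Pdgfa* (ENSMUSG00000025856), the A chain, which binds the alpha receptor, was at 18.15, 15.03 and 16.03 CPM for WT replicates 1, 2 and 3, against 17.0, 12.8 and 15.7 CPM for CharmeKO replicates 1, 2 and 3. The groups overlapped. WT libraries averaged 16.4 ± 1.59 CPM and CharmeKO libraries 15.2 ± 2.15 CPM (SD, n = 3 each), a log2 fold change of −0.12 ± 0.16 (SE, 95% interval −0.46 to 0.23, adjusted p = 0.814 by edgeR). Without CharmeKO replicate 2 this value was −0.0061, and without WT replicate 1 it was −0.028.

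*Pdgfd* (ENSMUSG00000032006), the D chain, is a ligand of the beta receptor that is secreted in a latent form and activated by cleavage. It was at 54.4, 46.3 and 50.9 CPM for WT replicates 1, 2 and 3, against 66.3, 88.5 and 51.5 CPM for CharmeKO replicates 1, 2 and 3. CharmeKO replicates 1 and 2 were above every WT library, while CharmeKO replicate 3 lay among them. WT libraries averaged 50.5 ± 4.06 CPM and CharmeKO libraries 68.8 ± 18.6 CPM (SD, n = 3 each), a log2 fold change of 0.44 ± 0.17 (SE, 95% interval 0.068 to 0.82, unadjusted p = 0.0248 and adjusted p = 0.309 by edgeR). The value rested in part on CharmeKO replicate 2, without which it was 0.22 (adjusted p = 0.763 in edgeR), whereas without CharmeKO replicate 3 it was 0.61 (adjusted p = 0.0934). With no gene filter, the adjusted p of *Pdgfd* was 0.0367 in edgeR at a log2 fold change of 0.45, and over all alternatives it ranged from 0.0367 to 0.763.

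*Pdgfc* (ENSMUSG00000028019), the C chain, which binds the alpha receptor and is also secreted in a latent form, was close to the limit of detection. It had 13, 14 and 3 counts for WT replicates 1, 2 and 3, against 8, 5 and 14 counts for CharmeKO replicates 1, 2 and 3. This corresponded to 0.387 ± 0.126 CPM for WT against 0.315 ± 0.132 CPM for CharmeKO (SD, n = 3 each), whereas a count of 0 would allow between 0.0713 and 0.313 CPM, depending on the library, in counting error alone. The log2 fold change was −0.30 (standard error 0.75, adjusted p = 0.904 by edgeR), and its 95% interval, from −1.95 to 1.35, left room for a change of *Pdgfc* in either direction within these bounds.

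**Figure D2:**
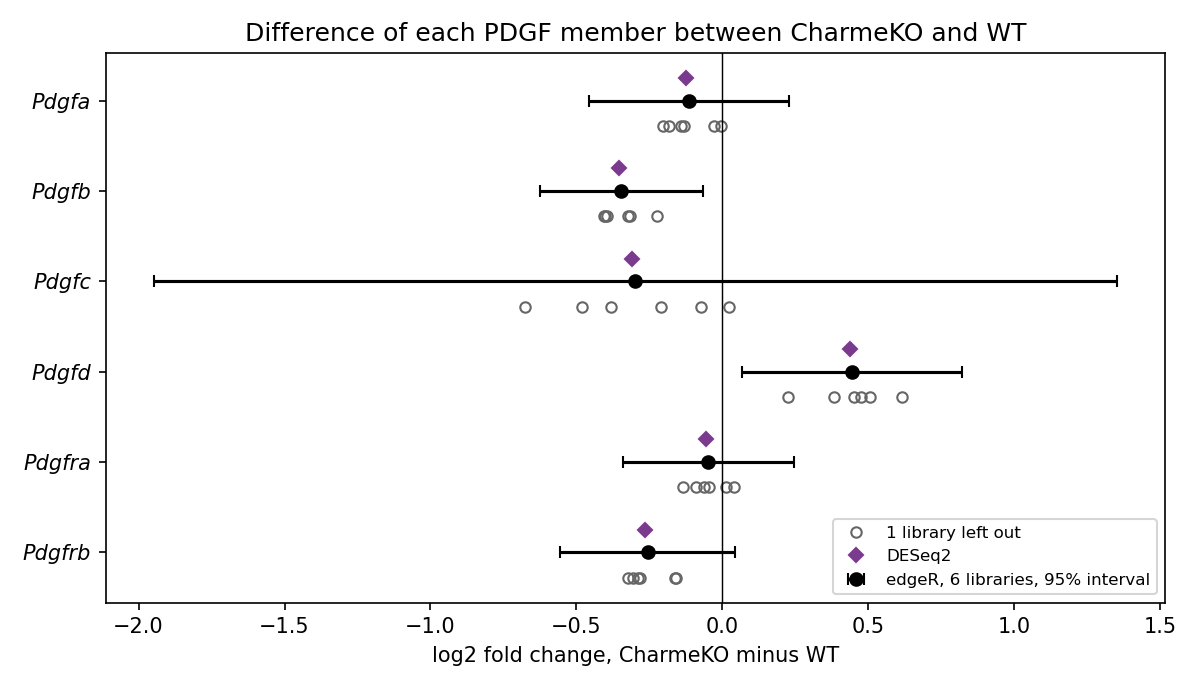
Log2 fold change of each PDGF gene, CharmeKO minus WT (horizontal axis), with the edgeR estimate and its 95% interval in black, the DESeq2 estimate as a diamond and the 6 edgeR estimates with 1 library left out as open circles. The intervals of *Pdgfb* (−0.63 to −0.066) and *Pdgfd* (0.068 to 0.82) exclude 0 before adjustment, while that of *Pdgfc* spans −1.95 to 1.35.

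As counts grow with transcript length, the levels of the 6 genes were compared as CPM per kb of exon, with the lengths of GENCODE release M21 on GRCm38, whereas the labels name GRCm39 for the counts. The annotation release behind the counts could not be settled from the labels and methods, so the lengths may differ from those of the counted gene models. In that annotation *Pdgfb* and *Pdgfra* each overlap 1 other gene on the same strand, whose reads may not be told from theirs. *Pdgfrb* was at 54.7 ± 7.69 CPM per kb (SD, n = 6), *Pdgfra* at 41.99 ± 3.90, *Pdgfb* at 35.2 ± 5.86, *Pdgfd* at 18.9 ± 4.97, *Pdgfa* at 5.06 ± 0.585 and *Pdgfc* at 0.0690 ± 0.0240. By these means both receptors stood above the ligand genes, with *Pdgfb* the highest and *Pdgfc* the lowest of the ligands. Neighbours in this order were compared within libraries by an exact two-sided sign-flip permutation test, for which 6 libraries allow no p below 0.0312, and the p-values were adjusted over the 5 pairs. *Pdgfrb* exceeded *Pdgfra* in 5 of 6 libraries, by 0.37 ± 0.24 on the log2 scale (SD, n = 6, exact permutation test, p = 0.0625), and *Pdgfra* exceeded *Pdgfb* in 5 of 6, by 0.26 ± 0.26 (exact permutation test, p = 0.0625). The order within these pairs was therefore not the same in every library. *Pdgfb* was above *Pdgfd*, *Pdgfd* above *Pdgfa* and *Pdgfa* above *Pdgfc* in all 6 libraries, by 0.92, 1.87 and 6.26 on the log2 scale (exact permutation test, p = 0.0312, adjusted p = 0.0521 for each), which is the smallest p this design gives and does not pass 0.05 after adjustment. The place of the receptors depended on the length. Divided by the longest annotated transcript, *Pdgfra* was above *Pdgfrb*, by 0.16 on the log2 scale, at means of 61.6 and 55.3 CPM per kb.

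**Figure D3:**
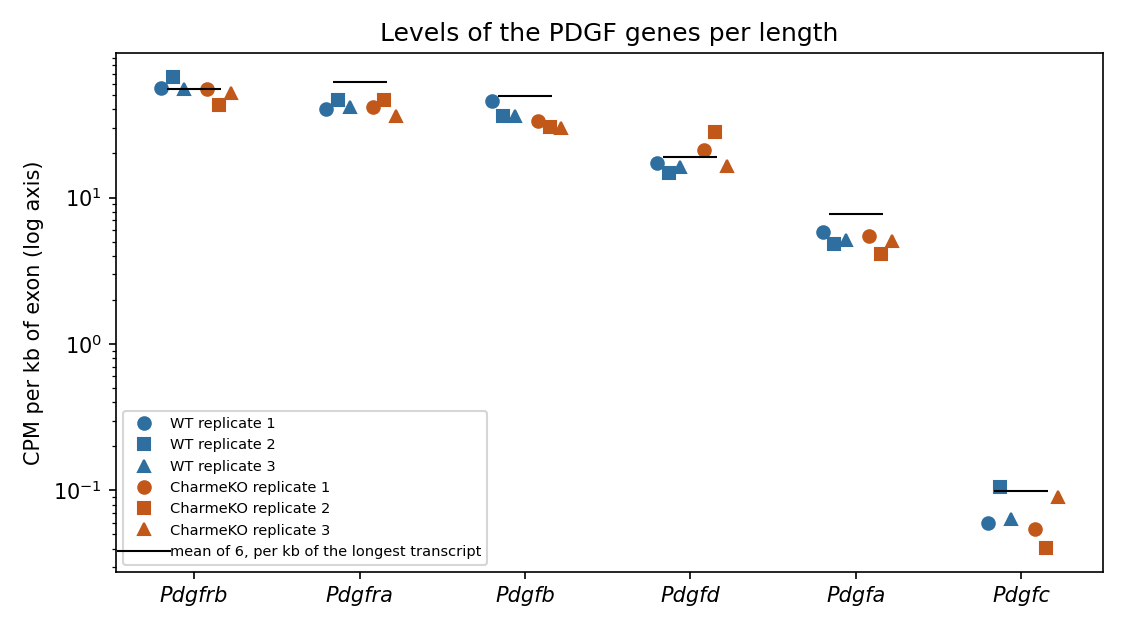
CPM per kb of exon (vertical log axis) of the PDGF genes in order of their mean, with 1 symbol per library in blue for WT and orange for CharmeKO, and a black line for the mean of 6 libraries per kb of the longest transcript. *Pdgfrb*, *Pdgfra* and *Pdgfb* lie between 29.6 and 67.0 CPM per kb in all libraries, and *Pdgfc* between 0.0402 and 0.105.

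To relate the PDGF genes to each other and to their usual cells of expression, 6 log2 ratios were computed within each library, which removes the library size. With 3 libraries against 3, the exact permutation test cannot go below p = 0.1. The ratio of *Pdgfb* to the summed endothelial markers was −5.59, −6.15 and −5.89 for WT replicates 1, 2 and 3, against −6.07, −6.54 and −6.44 for CharmeKO replicates 1, 2 and 3. WT replicate 2 lay just below the highest CharmeKO library, and all other WT values were above all CharmeKO values. The mean difference, −0.47 on the log2 scale, was the largest of the 3 ratios to marker lists (exact permutation test, two-sided, p = 0.2, adjusted p = 0.48 over the 6 ratios). While *Pdgfb* was at lower values in CharmeKO, 4 of the 10 endothelial markers, *Fabp4*, *Kdr*, *Tek* and *Emcn*, were at higher values in every CharmeKO library than in every WT library, a set named after its values were seen, with log2 fold changes between 0.28 and 0.43. Of the whole list, 6 genes had a positive and 4, *Cdh5*, *Eng*, *Cldn5* and *Tie1*, a negative log2 fold change, the latter between −0.17 and −0.036. In edgeR, 0 of the 10 passed the adjusted threshold and 3 had an unadjusted p under 0.05. Over all tested genes, 12.8% had such a p and 9.57% were higher in CharmeKO without overlap. In a comparison with single markers chosen after their values were seen, the ratio of *Pdgfb* to each of the 10 genes had a negative difference, with a median over the 10 differences of −0.55. For 5 of the 10 the groups did not overlap. The 10 ratios share *Pdgfb*, whose own groups did not overlap, and are not separate observations. No share over all genes was computed for such ratios, while 18.2% of single tested genes had groups without overlap.

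The ratio of *Pdgfrb* to the summed pericyte markers was −2.95, −2.50 and −2.69 for WT replicates 1, 2 and 3, against −2.84, −3.03 and −2.85 for CharmeKO replicates 1, 2 and 3. The groups overlapped, as WT replicate 1 lay among the CharmeKO libraries, and the difference was −0.19 (exact permutation test, p = 0.3, adjusted p = 0.48). It was −0.084 without WT replicate 2 and −0.31 without WT replicate 1. Taken to each pericyte gene singly, the difference was negative for 8 of 10 genes, with a median over the 10 differences of −0.21. These 10 differences share *Pdgfrb* and are not separate observations, and the comparison was chosen after the values were seen. When the median over the single genes was instead taken within each library, also chosen afterwards, the difference was 0.038. The pericyte list held values in both directions, with *Cspg4*, which encodes NG2, and *Notch3* at lower values and *Cox4i2* at higher values in every CharmeKO library, all 3 named after their values were seen. Over all tested genes, 8.59% were lower and 9.57% higher in CharmeKO without overlap. In edgeR, 0 of 10 genes passed the adjusted threshold and 3 had an unadjusted p under 0.05, beside 12.8% of all tested genes, while DESeq2 called 1, *Cspg4*, beside 2.55%. The ratio of *Pdgfra* to the summed fibroblast markers averaged −6.64 ± 0.055 for WT against −6.51 ± 0.349 for CharmeKO (SD, n = 3 each), a difference of 0.13 (exact permutation test, p = 0.7, adjusted p = 0.7) that turned to −0.10 when the collagen genes were left out of the list. The fibroblast list held 6 genes with a negative and 4 with a positive log2 fold change, with 0 past the adjusted threshold in edgeR, 5 at an unadjusted p under 0.05, beside 12.8% of all tested genes, and 2 lower in DESeq2, beside 2.55%. *Gsn* made up 52.4% of the sum of this list. CharmeKO libraries were more spread than WT libraries, with CharmeKO replicate 2 at −6.19 and CharmeKO replicate 3 at −6.88. Taken to each fibroblast gene singly, also chosen after the values were seen, the difference was positive for 5 genes and negative for 5, with a median of 0.051.

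Between the receptors, the ratio of *Pdgfra* to *Pdgfrb* was 0.378, 0.337 and 0.470 for WT replicates 1, 2 and 3, against 0.471, 0.974 and 0.351 for CharmeKO replicates 1, 2 and 3. CharmeKO replicate 2 stood apart, and the difference of 0.20 (exact permutation test, p = 0.4, adjusted p = 0.48) was 0.016 without it. Between the ligands, the difference in the ratio of *Pdgfa* to *Pdgfb* was 0.22 (exact permutation test, p = 0.2, adjusted p = 0.48), and that in the ratio of *Pdgfc* to *Pdgfd* was −0.75 (exact permutation test, p = 0.4, adjusted p = 0.48), the latter with few *Pdgfc* counts behind it. Without CharmeKO replicate 2 the latter was −0.28, without WT replicate 2 it was −0.43, and without CharmeKO replicate 3 it was −1.25.

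**Figure D4:**
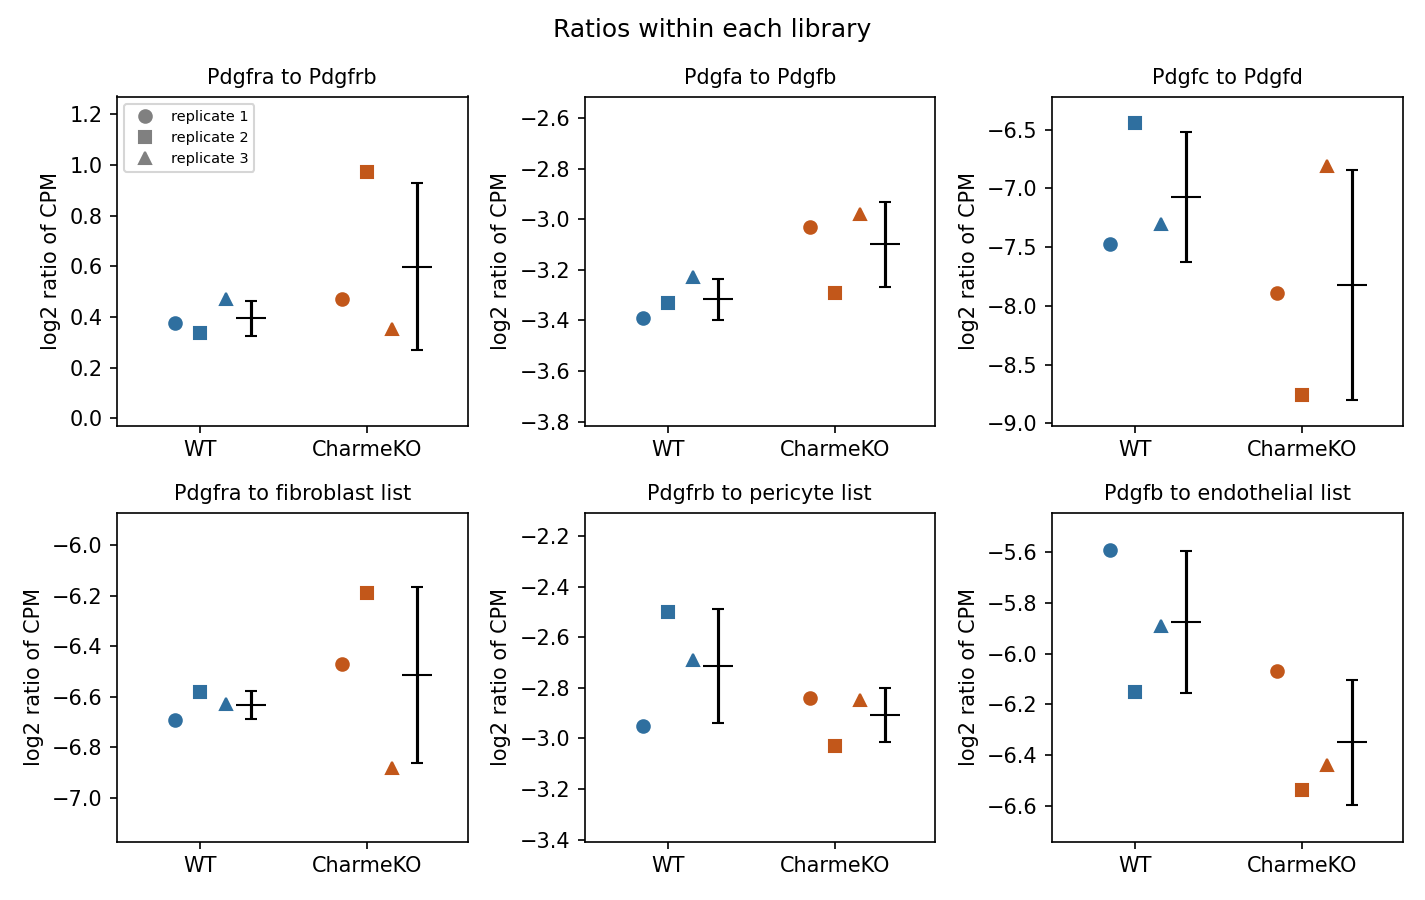
Log2 ratios of CPM within each library (vertical axes, of equal span except for the wider one of *Pdgfc* to *Pdgfd*) in 3 WT and 3 CharmeKO libraries, with the mean ± SD beside the points. The ratio of *Pdgfb* to the endothelial list has a mean of −5.88 in WT and −6.35 in CharmeKO, and the groups overlap in all 6 ratios.

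Genes that act around the PDGF receptors were then examined in 6 lists, 84 tested genes in all. In edgeR, 0 of them passed the adjusted threshold, beside 0.830% of all tested genes. In the same fit, 9 had an unadjusted p under 0.05, 8 of them lower and 1 higher in CharmeKO. Over all tested genes, 6.87% were lower and 5.90% higher at such a p. DESeq2 called 2 of the 84, beside 2.55% of the genes for which it gave an adjusted p. The share of 10.7% at an unadjusted p under 0.05 stood beside 12.8% of all tested genes, and 16 of the 84 genes, 19.0%, had groups without overlap, beside 18.2%. The median log2 fold change was −0.053, and 53 of the 84 genes had a negative value.

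The 2 genes that DESeq2 called were in the list of ligand-binding proteins and co-receptors, of which 8 of 10 genes had a negative log2 fold change, with a median of −0.295 over the list. *Lrp1* encodes a large endocytic receptor that associates with the beta receptor. It was at 4571 ± 411 CPM in the WT group against 3151 ± 357 CPM in the CharmeKO group (SD, n = 3 each), a log2 fold change of −0.54 ± 0.15 (SE, adjusted p = 0.157 from edgeR and 0.00283 from DESeq2). *Hspg2* encodes perlecan, a heparan sulfate proteoglycan of basement membranes. It was at 15055 ± 2224 CPM in the WT group against 9863 ± 2660 CPM in the CharmeKO group (SD, n = 3 each), a log2 fold change of −0.61 ± 0.20 (SE, adjusted p = 0.242 from edgeR and 0.0293 from DESeq2). For both genes, every CharmeKO library was below every WT library. Of the 10 genes of this list 3 showed that pattern, beside 8.59% of all tested genes. *Thbs1*, which encodes thrombospondin and was named after its values were seen, had the most negative value of the list, −0.66 ± 0.23 (SE, adjusted p = 0.269 in edgeR), with overlapping groups. *Sparc*, a matricellular protein that binds PDGF-B, had a log2 fold change of −0.32 (adjusted p = 0.516 in edgeR), and *Nrp1*, a co-receptor named after its values were seen, had one of 0.27 (adjusted p = 0.445 in edgeR).

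Among the 7 genes that process the ligands, *Pcsk6*, a proprotein convertase, had the highest mean CPM, at 1317 ± 110 CPM in the WT group against 1264 ± 77.9 CPM in the CharmeKO group (SD, n = 3 each). *Furin*, the convertase that cleaves the A and B chains, was below WT in every CharmeKO library, with a log2 fold change of −0.40 ± 0.14 (SE, unadjusted p = 0.0157 and adjusted p = 0.270 in edgeR). It was the only 1 of the 7 genes without overlap between the groups, and 8.59% of all tested genes were lower in this way. *Plat*, the tissue plasminogen activator that cleaves the C chain, averaged 169 ± 11.5 CPM for WT against 167 ± 1.97 CPM for CharmeKO (SD, n = 3 each), and it was 1 of 5 genes of the list with a negative log2 fold change, the other 2 being positive.

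The 39 tested genes of receptor signalling include adaptors, PI3-kinase, Ras and MAP kinase genes. Of them, 21 had a negative and 18 a positive log2 fold change, with a median of −0.028. At an unadjusted p under 0.05 in edgeR there were 2, or 5.13%, beside 12.8% of all tested genes. Groups without overlap were found for 7, or 17.9%, beside 18.2%. The 3 genes of this list with the highest CPM were *Akt1*, *Mapk3* and *Plcg1*, with log2 fold changes of −0.054, 0.091 and −0.27 (adjusted p between 0.570 and 0.901 in edgeR). The 14 negative regulators, phosphatases, ubiquitin ligases and Sprouty proteins, had a median of −0.078, and those with the highest CPM, *Spry1*, *Dusp6* and *Spry4*, had log2 fold changes of 0.017, 0.046 and −0.13. The early response genes, which PDGF induces in quiescent fibroblasts but which dissociation of a tissue induces as well, were at high levels in both groups. *Egr1*, *Junb* and *Fosb* were at means between 4529 and 8628 CPM. Of the 10 genes of this list, 0 had an unadjusted p under 0.05 in edgeR, beside 12.8% of all tested genes. The adjusted threshold was passed by 0 in edgeR and 0 in DESeq2.

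Of the 4 relatives of the receptors, 3 had a negative log2 fold change. In edgeR, 0 passed the adjusted threshold and 0 had an unadjusted p under 0.05, beside 12.8% of all tested genes for the latter. DESeq2 called 0 of the 4. *Pdgfrl*, which encodes a receptor-like protein without a kinase domain, was at 40.6 ± 3.43 CPM in the WT group against 33.8 ± 2.75 CPM in the CharmeKO group (SD, n = 3 each), a log2 fold change of −0.26 ± 0.12 (SE, adjusted p = 0.404 in edgeR). *Kit* was at 40.1 ± 2.84 and 32.0 ± 8.74 CPM (adjusted p = 0.487 in edgeR). *Csf1r*, a receptor of macrophages, was at 2.21 ± 0.269 and 1.304 ± 0.666 CPM (adjusted p = 0.513 in edgeR), and *Flt3* was at under 1 CPM in both groups.

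**Figure D5:**
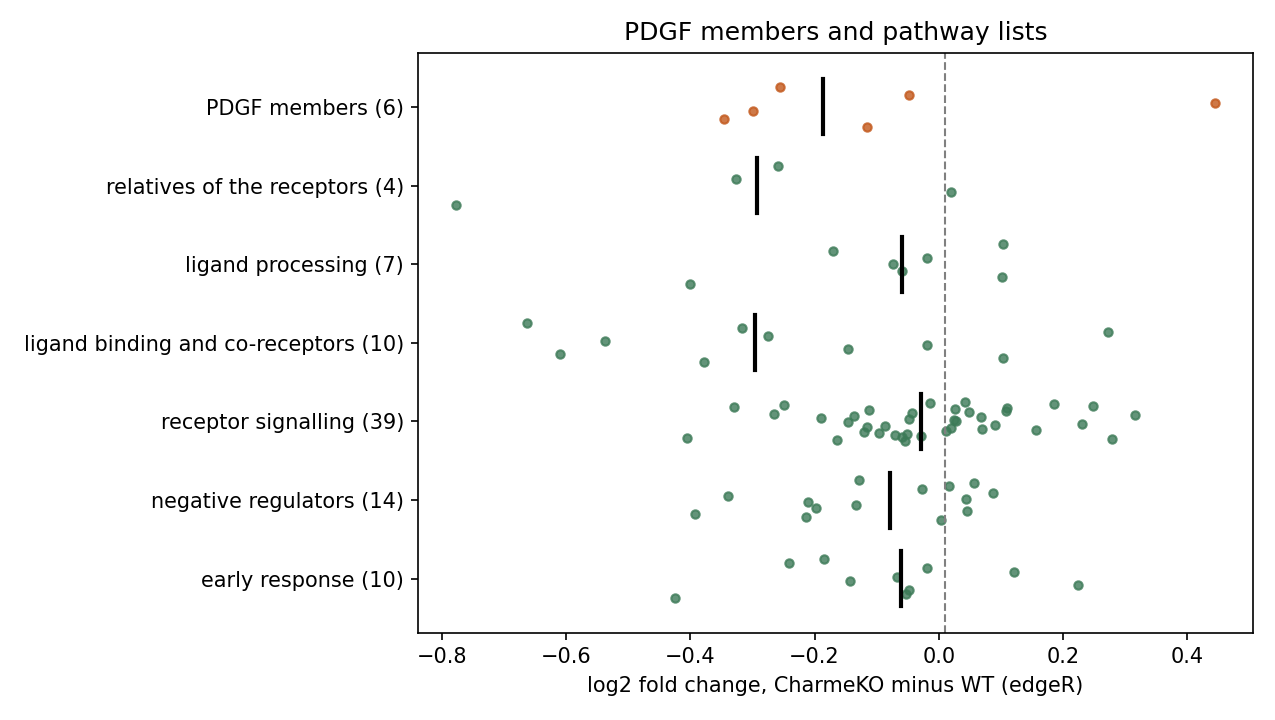
Log2 fold change, CharmeKO minus WT (horizontal axis, edgeR), of each tested gene (points) in the PDGF family and 6 pathway lists, with the number of genes in parentheses, a black bar for the median of each list and a dashed line for the median of all tested genes. The medians of the lists lie between −0.295 and −0.028, and that of the 6 PDGF genes is −0.19.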

How the data were processed

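Quality-filtered reads had been aligned by the authors using STAR (version not given in the sources used here) to the mouse assembly named GRCm39 in the labels, and counted per gene on an Ensembl annotation with *Charme* added, with the reverse-strand setting. The labels also list GRCh38, a human assembly. The authors deposited raw counts for 6 libraries. Genes that reached 10 counts in 2 or more libraries were kept (15789 genes). The wording of the study can also be read as a filter of 10 counts in 5 libraries, which was an alternative. Counts were scaled by TMM and tested with edgeR 4.0.16 in R 4.3.3. DESeq2 1.42.0, other normalizations and filters, the replicate number as a block, a term for the split of libraries by *Xist* and Y-linked transcripts, and each library left out in turn were the alternatives. Standard errors were derived from the F statistics. The edgeR and DESeq2 tests, but not the permutation tests, were checked on simulated counts. The differences planted there were larger than those of the PDGF genes. The members, gene lists and tests were chosen with earlier results of these data known. Besides the members, genes were named by rule: any pathway gene past the threshold, the 3 of highest mean CPM in each pathway list, and the 3 tested genes of at least 10 CPM most alike to each receptor. Others were named after their values were seen. Counting intervals cover counting error only. Promoter entries of RefSeq were found for 4 of the 6 genes. Figures were drawn with matplotlib 3.10.9.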

Additional observations from a re-analysis of the deposited data

How the results depend on the processing

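Under the 82 alternative fits of the 6 PDGF genes, the direction turned in 3 and the threshold was crossed in 1, that of *Pdgfd* with no gene filter (log2 fold change 0.4479). With each library left out, *Pdgfra* ranged from −0.14 to 0.039 (0.011 without WT replicate 2, 0.039 without CharmeKO replicate 3) and *Pdgfc* from −0.68 to 0.023, positive without WT replicate 2. *Pdgfc* was not tested under the filter of 10 counts in 5 libraries or under filterByExpr. The genes past the threshold, 131 in edgeR, numbered 394 in DESeq2, 699 with no gene filter and between 61 and 349 with 1 library left out (349 without WT replicate 2, 71 without WT replicate 1, 67 without WT replicate 3 or CharmeKO replicate 2, 61 without CharmeKO replicate 1). Of the pathway genes, 0 in edgeR, 2 passed in DESeq2 (*Hspg2*, *Lrp1*), 2 with no gene filter (*Hspg2*, *Thbs1*) and between 0 and 1 with 1 library left out (*Thbs1*, without WT replicate 2). The filter of 10 counts in 5 libraries left 13747 genes, 90 of them past the threshold. By length of the longest transcript, the log2 differences between neighbours were −0.16 for *Pdgfrb* against *Pdgfra*, 1.41 for *Pdgfb* against *Pdgfd*, 1.29 for *Pdgfd* against *Pdgfa* and 6.33 for *Pdgfa* against *Pdgfc* (exact permutation test, adjusted p = 0.0391 for each). With 1 library left out, the CharmeKO minus WT difference in the log2 ratio of *Pdgfra* to the fibroblast list ranged from −0.037 (without CharmeKO replicate 2) to 0.31. It was −0.10 without collagens. An alternative chosen after seeing the data took the median ratio over single genes within each library. By it this difference was 0.49, that for *Pdgfrb* and the pericyte list 0.038 and that for *Pdgfb* and the endothelial list −0.47. The cause of these shifts was not tested.

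With the replicate number as a block, 302 genes and 1 pathway gene, *Thbs1*, passed the threshold, and 0 of the 6 PDGF genes did. The deviations of same-numbered libraries from their group means correlated by 0.216, 0.0535 and 0.161. Those of libraries with different numbers correlated by −0.223 to 0.0391, so every library correlated best with its own number. Whether libraries of the same number share a batch or another pairing was not tested. With the split by *Xist* and Y-linked transcripts as a term, the log2 fold change of *Pdgfd* was 0.30 (unadjusted p = 0.0756 in edgeR), against 0.44 without the term. That of *Pdgfb* was −0.41, against −0.35, and that of *Pdgfrb* was −0.22, against −0.26. The libraries thus differed in these sex-linked transcripts, and the side of each library is not given here. The part of this split in the values of the PDGF genes was not tested further. Depth limits the values of *Pdgfc*, with 57 counts in all libraries.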

Other observations

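The tested genes of at least 10 CPM whose log2(CPM + 1) followed *Pdgfra* most closely over the 6 libraries were *Zmym3*, *Oga* and *Supt6*, with Pearson's r between 0.953 and 0.969. For *Pdgfrb* they were *Acvr1*, *Zfp263* and *Pnpla7*, with r between 0.984 and 0.987. They were the highest of 8913 genes compared, 5 of which had an r over 0.95 with *Pdgfra* and 31 with *Pdgfrb*, and with 6 libraries that share their depth and composition the values are a description.

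Other cells that express PDGF genes were followed by their markers. The sum of 5 platelet genes was between 17.2 and 43.0 CPM in WT and between 30.5 and 45.7 CPM in CharmeKO, and that of 6 smooth muscle genes was between 675 and 761 CPM in WT and between 739 and 1001 CPM in CharmeKO. Both lists overlapped between the groups, with 0 genes past the adjusted threshold in edgeR or DESeq2. At an unadjusted p under 0.05 in edgeR there were 2 of 5 platelet genes, 40.0%, 1 of them higher and 1 lower in CharmeKO. There were 0 of 6 smooth muscle genes, beside 12.8% of all tested genes. All 6 smooth muscle genes had a positive log2 fold change, with a median of 0.26. Of these, 2 had groups without overlap, 33.3% beside 18.2% of all tested genes. In the epicardial list, *Wt1*, a transcription factor of the epicardium, fell by 0.66 on the log2 scale, from 50.8 ± 4.02 CPM (SD, n = 3) in WT to 32.3 ± 1.05 CPM (SD, n = 3) in CharmeKO (adjusted p = 0.0189 in edgeR). All 6 genes had a negative log2 fold change, beside 48.8% of all tested genes. Of the 6, 1 passed the adjusted threshold in edgeR, 4 had an unadjusted p under 0.05 and 2 had groups without overlap. In the cardiomyocyte list, *Myh6* and *Tnni3* rose, by 0.85 and 0.95 on the log2 scale (adjusted p = 0.0292 and 0.0200 in edgeR), and all 9 genes had a positive log2 fold change. Of the 9, 2 passed the adjusted threshold in edgeR and 5 in DESeq2, beside 0.830% and 2.55% over all genes. An unadjusted p under 0.05 in edgeR was found for 8, beside 12.8% of all tested genes. Groups without overlap were found for 7, beside 18.2%. The leukocyte, Schwann cell and erythroid sums overlapped between the groups, with log2 differences of 0.16, 0.036 and −0.24. The erythroid sum was high, between 26778 and 39216 CPM in WT and between 24417 and 31749 CPM in CharmeKO, above the endothelial sum in every library. In these lists 0 genes passed the adjusted threshold in edgeR or DESeq2. At an unadjusted p under 0.05 in edgeR there was 1 of 6 erythroid genes, 16.7%, beside 12.8% of all tested genes.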
